A study of Mus musculus with 3 samples.

Results

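The 36 genes described here make, coat, fill or empty the lipid store of fat cells, or are secreted by fat cells, and they were followed in cardiac myofibroblasts that were taken off a stiff plate into suspension and then put back. The genes were chosen by what they are known to do, with earlier results of these same arrays known, and Plin1 and Thrsp were included because their signal had already been seen to be higher in suspension, so the values of those genes are given as a description. All 36 had at least 1 probe on the array, and 33 were measured, meaning that at least 1 array gave a signal well above background, out of 15393 genes measured in all. The cells came from hearts of male C57BL/6J mice, collected 3 days after the left anterior descending artery was tied off for good. The labels give the age as 8 weeks in one place, as 8 to 10 weeks in another and elsewhere as 10 weeks at ligation. They name no transgene or drug in any group. Cells attached to plastic overnight were depleted of those carrying CD45, a leukocyte surface protein, and all groups started from what passed that sort. Ptprc, the gene of CD45, and 17 other macrophage markers were nonetheless well above background on every array, the adherent array included. The adherent group was grown on plastic plates, the non-adherent group was then kept in suspension on plates that cells cannot grip, and the re-adherent group was returned from suspension to plastic. Each group was 1 array of RNA mixed from several hearts, so there is no spread between biological replicates and no test or p-value is given. The states followed each other in time, so time in culture and state cannot be told apart.

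White fat cells keep triglyceride in a large droplet whose surface carries perilipin and CIDE proteins, and they secrete hormones such as adiponectin and leptin. Fatty acids reach the droplet either from outside, released from lipoproteins by lipoprotein lipase and carried in by CD36 and fatty acid binding proteins, or from new synthesis out of acetyl-CoA. They are joined to a glycerol backbone by the acyltransferases and released again by lipases. The nuclear receptor PPAR-gamma and the factor C/EBP-alpha hold the fat cell programme together, and LXR and SREBP govern lipid synthesis in many cells. Macrophages share much of this machinery: a lipid-laden macrophage carries perilipin 2, CD36, lipoprotein lipase, FABP4 and PPAR-gamma without being a fat cell. The 36 genes are therefore also divided into 9 largely restricted to fat cells, 13 that macrophages use as well, and 14 others. The 14 are called lipid genes of most cells, a loose name, since Gpd1, Lipe and Plin5 among them are prominent in particular tissues. Some of the 9 are not exclusive to white fat cells, since brown fat, liver and muscle use several of them. Whether macrophages or fibroblasts used any of the 9 here was not tested.

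The promoter sequence is shown for the 5 fat-cell-restricted genes whose signal was over 2-fold higher in suspension. Among the members past that limit, they are the ones listed as largely restricted to fat cells. The sequences are RefSeq promoters of build GRCm38.p6, written 5′ to 3′, and parts that lie inside an annotated gene were left out. The Plin1 stretch is chr7:79732905-79733026 on the minus strand, Thrsp chr7:97417551-97417800 on the minus strand, Cfd chr10:79890603-79890852 on the plus strand, Adipoq chr16:23146286-23146535 on the plus strand and Plin4 chr17:56109949-56110032 on the minus strand. Capitals mark a match to TTGCNNAA, a core letter pattern bound by C/EBP factors, and a second match near Plin1 lay in the part left out.
Plin1: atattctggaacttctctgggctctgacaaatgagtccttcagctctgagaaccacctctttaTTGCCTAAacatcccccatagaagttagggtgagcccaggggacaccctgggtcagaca
Thrsp: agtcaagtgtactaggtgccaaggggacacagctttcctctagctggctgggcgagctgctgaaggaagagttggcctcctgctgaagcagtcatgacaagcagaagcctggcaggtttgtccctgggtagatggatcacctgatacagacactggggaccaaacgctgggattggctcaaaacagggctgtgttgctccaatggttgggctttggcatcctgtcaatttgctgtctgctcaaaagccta
Cfd: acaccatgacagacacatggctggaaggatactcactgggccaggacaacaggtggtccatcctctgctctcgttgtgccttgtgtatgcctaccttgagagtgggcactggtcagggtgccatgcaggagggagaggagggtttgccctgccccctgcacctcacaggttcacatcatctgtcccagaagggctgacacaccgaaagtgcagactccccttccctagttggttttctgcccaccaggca
Adipoq: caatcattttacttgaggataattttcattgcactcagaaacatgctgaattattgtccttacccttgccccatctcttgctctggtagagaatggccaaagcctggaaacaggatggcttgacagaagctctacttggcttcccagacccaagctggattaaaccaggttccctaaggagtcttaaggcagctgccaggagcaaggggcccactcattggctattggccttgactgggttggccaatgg
Plin4: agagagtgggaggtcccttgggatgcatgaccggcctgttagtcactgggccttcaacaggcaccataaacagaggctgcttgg
RefSeq promoters, from 250 bases before to 50 after the start, were at hand for 27 of the 36 genes. The pattern TTGCNNAA, searched on both strands, lay in the promoters of 4 of those 27 (Plin1, Pparg, Cidec and Lep), or 14.8%, and in those of 12.2% of all 27025 genes with a promoter, so the members stood near the background. CACGTG, the E-box read by many helix-loop-helix factors, lay in 3 members (Plin2, Lipe and Mgll), or 11.1%, against 8.09% of all genes. The SREBP pattern TCACNCCAC lay in 1 member, Acsl1, or 3.7%, against 1.44% of all genes. The direct repeats AGGTCANAGGTCA of PPAR-gamma with RXR and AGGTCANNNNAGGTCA of LXR lay in 0 members, and in 0.0481% and 0.0148% of all genes. The direct repeats share the letters AGGTCA with each other, and a match is only a run of letters, not a bound site. Dgat1, Gpd1, Cidea, Scd1, Scd2, Lpl, Fabp4, Dgat2 and Fabp5 had no promoter entry.

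Levels are given below as scaled signal, the array intensity after all 3 arrays were brought to a common 75th percentile of 629.6 units. Between 53.95% and 59.92% of the spots were well above background, and no spot was saturated. The median software error was 0.204 for a log2 difference between 2 arrays, and for probes spotted 10 times the standard deviation of that difference had a median of 0.098 to 0.101. Both errors are of the array only, not of the cells. A gene is called over 2-fold higher or lower only if the brighter array was well above background. A signal that was not well above background was raised to the lowest signal that was, at 16.2 units on the adherent, 12.67 on the non-adherent and 21.33 on the re-adherent array, so that such a fold is a lower bound.

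In suspension, 17 of the 33 measured genes were over 2-fold higher than in adherent cells, 4 were over 2-fold lower and 9 were within 2-fold. The other 3 (Cidea, Cidec and Retn) had only a lower bound that fell short of 2-fold and are counted as not called. Over all genes measured, 15.8% were over 2-fold higher and 13.8% were over 2-fold lower. The median log2 difference was 1.05 over the members and -0.07 over all genes. Because 6 members (Plin1, Thrsp, Adipoq, Cidea, Cidec and Retn) were well above background in suspension alone and were measured only through that array, the 27 members that were bright on all 3 arrays were also counted, and of these 14 were higher and 4 lower, against 15.2% and 13.4% of all genes that were bright on all arrays. On return to the plate 15 members were lower and 4 higher by over 2-fold, against 13.9% and 14.9% of all genes, and the members' median log2 difference was -0.70. The 15 were the 17 that had been higher in suspension less Acsl1 and Pnpla2, and the 4 were the 4 that had been lower, but both steps use the non-adherent array, so the second step is not independent of the first. Without scaling, Acsl1 and Pnpla2 were also over 2-fold lower on return (-1.12 and -1.01 on the log2 scale), as was Acsl1 in the authors' values (-1.03). Between re-adherent and adherent cells, 2 members (Plin4 and Cfd) were over 2-fold higher, 0 lower and 31 within 2-fold or below background, against 4.07% higher and 2.94% lower over all genes.

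**Figure D1:**
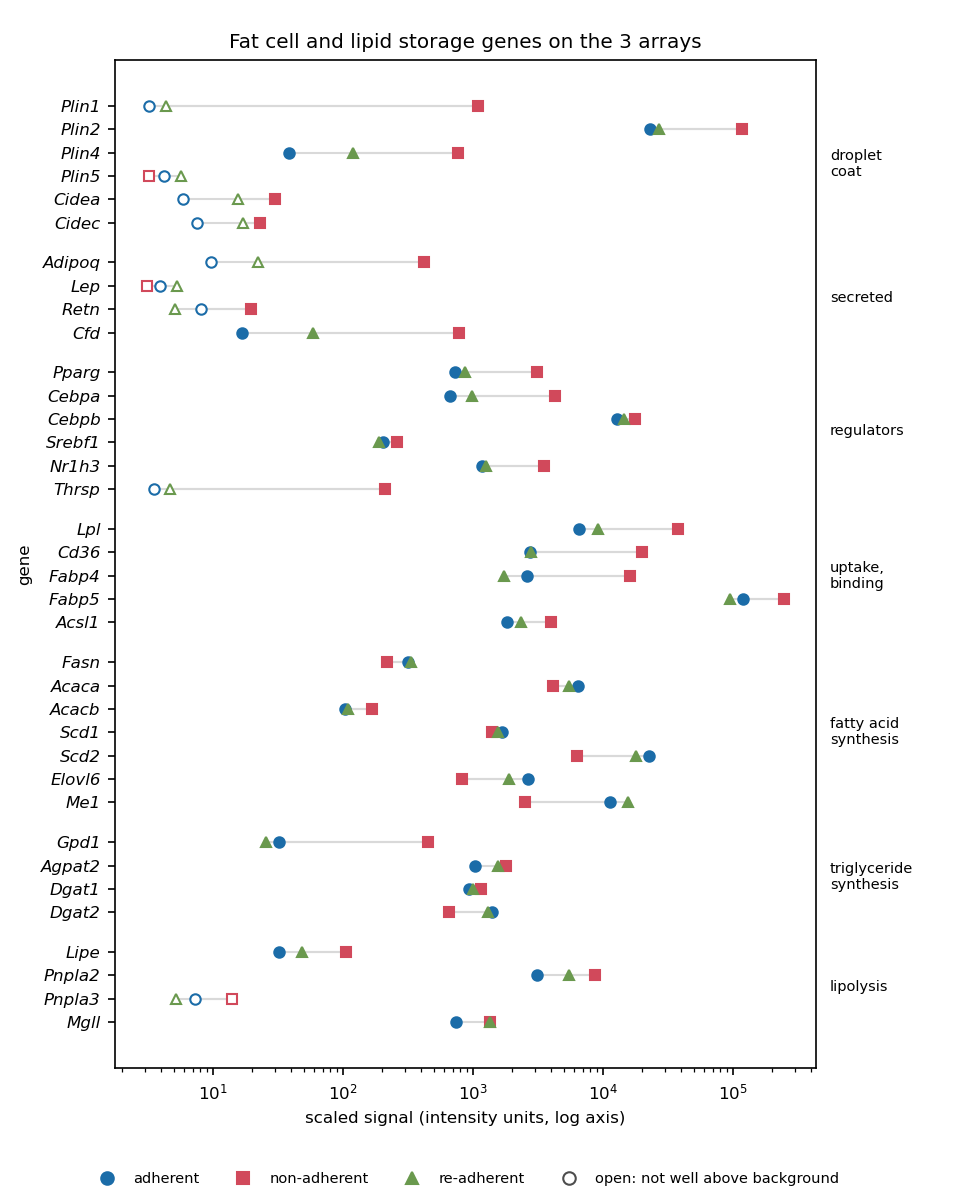
Scaled signal (intensity units, log axis) of the 36 genes, in rows grouped by role, on the adherent (circle), non-adherent (square) and re-adherent (triangle) array, with open symbols where the signal was not well above background. The non-adherent square lies to the right in the droplet, secreted, regulator and uptake rows other than Plin5 and Lep, which were dim on all arrays, and to the left for Scd2, Elovl6, Me1 and Dgat2, and circles and triangles lie close together in most rows.

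Of the droplet coat genes, Plin1, Plin2 and Plin4 were over 2-fold higher in suspension. Plin1 encodes perilipin 1, which coats the droplet of mature fat cells and gates the lipases. Its signal was 3.247 units in adherent cells, not well above background, 1101.7 in non-adherent cells and 4.322 in re-adherent cells, again not well above background. Suspension was thus at least 68.0-fold above adherent cells and at least 51.64-fold above re-adherent cells, on 1 spot per array. Plin2 encodes perilipin 2, the coat protein of droplets in most cells including macrophages, and it was bright on every array, at 23232.2 units in adherent, 117506.3 in non-adherent and 27126.8 in re-adherent cells. It was 5.06-fold higher in suspension, a log2 difference of 2.34 ± 0.20 (software error), and 4.33-fold lower again on return. Plin4, which coats small nascent droplets in fat cells and is also found in muscle, read 38.74, 771.1 and 120.2 units in the same order. It was 19.9-fold higher in suspension (log2 difference 4.32 ± 0.26) and 6.42-fold lower on return, and it stayed 3.1-fold above adherent cells after the return (1.63 ± 0.26).

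The other droplet genes were dim. Cidea, which helps droplets fuse in brown fat, read 5.914 units in adherent and 15.48 in re-adherent cells, neither well above background, and 30.31 in suspension, at least 1.87-fold above adherent cells. Cidec, whose protein fuses droplets in white fat cells, had 2 probes that differed. The probe that stood for the gene, the brighter by its mean log2 level, gave 7.524, 23.06 and 17.11 units and a bound of at least 1.42-fold, while the other gave 4.186, 80.35 and 5.678 units and a bound of at least 4.96-fold, with only the suspension array well above background in both, so whether Cidec was over 2-fold higher depends on the probe. Plin5, the perilipin of oxidative tissue, stayed near background throughout (3.24 to 5.639 units).

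Of the secreted proteins, Adipoq and Cfd were over 2-fold higher in suspension and leptin was not detected. Adipoq, the gene of adiponectin, a hormone made almost entirely by fat cells, read 9.743 units in adherent cells and 22.16 in re-adherent cells, neither well above background, and 423.6 units in suspension. It was at least 26.1-fold above adherent cells and at least 19.1-fold above re-adherent cells. Cfd encodes adipsin, the complement factor D protease that fat cells release, and it read 16.72 units in adherent, 775.7 in non-adherent and 59.28 in re-adherent cells. It was 46.4-fold higher in suspension (log2 difference 5.54 ± 0.35) and 13.1-fold lower on return, which left it 3.55-fold above adherent cells (1.83 ± 0.37). The adherent value of Cfd lay just above the lowest signal counted as well above background there. With normexp background correction, the re-adherent against adherent differences of Cfd and Plin4 were 0.91 and 0.84 on the log2 scale and no longer over 2-fold. Retn, the gene of resistin, read 8.138, 19.75 and 5.083 units, well above background in suspension alone and at least 1.22-fold above adherent cells. Lep, the gene of leptin, had a probe spotted 10 times per array and stayed between 3.117 and 5.332 units, near background throughout.

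Of the 6 regulators, Pparg, Cebpa, Nr1h3 and Thrsp were over 2-fold higher in suspension and Cebpb and Srebf1 were not. Pparg encodes PPAR-gamma, the receptor needed to form fat cells and also active in macrophages, and it read 732.6 units in adherent, 3090.2 in non-adherent and 873.9 in re-adherent cells. Its probe was spotted 10 times, and the spots kept after outlier flags ran from 693.0 to 797.0 units (median 726.8, 9 spots) on the adherent array, from 2913.8 to 3273.3 (median 3064.9, 10 spots) on the non-adherent array and from 788.6 to 933.0 (median 879.1, 8 spots) on the re-adherent array. The non-adherent spots did not overlap those of the other arrays, while the lowest re-adherent spot lay below the highest adherent spot. These spots measure the same RNA and so show the array's error alone. Pparg was 4.22-fold higher in suspension (2.08 ± 0.07) and 3.54-fold lower on return.

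Cebpa, the partner of Pparg in fat cells and also a factor of the myeloid lineage, read 667.4, 4299.8 and 979.3 units, 6.44-fold higher in suspension and 4.39-fold lower on return. Nr1h3, the gene of LXR-alpha, the receptor that senses cholesterol derivatives in liver, fat and macrophages, read 1170.7, 3540.5 and 1267.3 units, 3.02-fold higher and then 2.79-fold lower, and its second probe moved alike (1.52 on the log2 scale in suspension). Thrsp, or Spot 14, which responds to thyroid hormone and goes with fatty acid synthesis in fat and liver, read 3.499 units in adherent and 4.651 in re-adherent cells, neither well above background, and 211.0 in suspension. That was at least 13.0-fold above adherent and at least 9.89-fold above re-adherent cells. Cebpb, an early factor of fat cell formation with wide expression, read 12861.2, 17632.7 and 14431.8 units, a log2 difference of 0.46 ± 0.20 in suspension. Srebf1, which drives the genes of fatty acid synthesis, read 202.3, 260.6 and 190.7 units (0.37 ± 0.21).

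All 5 genes of fatty acid uptake, binding and activation were over 2-fold higher in suspension, with a median log2 difference of 2.54. Among all genes bright on every array, as these 5 were, 15.2% were higher. Fabp5 and Acsl1 passed the limit narrowly and not under every scaling, as given below. Lpl encodes lipoprotein lipase, which frees fatty acids from circulating lipoproteins, and it read 6503.7 units in adherent, 37739.8 in non-adherent and 9168.9 in re-adherent cells. It was 5.8-fold higher in suspension and 4.12-fold lower on return, and its second probe gave 2.70 on the log2 scale in suspension. Cd36, the fatty acid translocase and scavenger receptor of fat cells, macrophages and capillary endothelium, read 2738.6, 20061.5 and 2811.6 units, 7.33-fold higher and then 7.14-fold lower, so that adherent and re-adherent cells differed by 0.04 ± 0.20 on the log2 scale. Fabp4, the fatty acid carrier of the cytosol in the same 3 cell types, read 2615.7, 16026.5 and 1733.1 units, 6.13-fold higher in suspension, 9.25-fold lower on return and 1.51-fold lower in re-adherent than in adherent cells.

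The remaining members of that group moved less. Fabp5, a related carrier of wide expression, was the brightest member of all, at 119817.7 units in adherent, 247906.2 in non-adherent and 94991.7 in re-adherent cells, 2.07-fold higher in suspension and 2.61-fold lower on return. Acsl1, which attaches coenzyme A to long fatty acids, read 1820.2, 3981.5 and 2354.6 units, 2.19-fold higher in suspension. Fabp5 and Acsl1 lay near the 2-fold limit, and scaled to the spike-in RNA added to each sample their suspension differences were 0.78 and 0.86 on the log2 scale, under 2-fold.

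Of the 7 genes of fatty acid synthesis, 0 were over 2-fold higher in suspension, 3 over 2-fold lower and 4 within 2-fold. Among all genes bright on every array, as these 7 were, 15.2% were higher and 13.4% lower. The median log2 difference was -0.62, with 6 of the 7 below 0 and Acacb above. Me1, the malic enzyme that supplies NADPH to the synthesis, read 11389.4 units in adherent, 2537.3 in non-adherent and 15496.9 in re-adherent cells, 4.49-fold lower in suspension and 6.11-fold higher on return. Its 3 probes gave log2 differences from -2.78 to -2.17 in suspension. Scd2, a desaturase that makes monounsaturated fatty acids in many tissues outside the liver, read 22650.0, 6333.1 and 18102.4 units, 3.58-fold lower and then 2.86-fold higher. Elovl6, which lengthens palmitate, read 2657.6, 826.6 and 1907.3 units, 3.22-fold lower and then 2.31-fold higher. Its return step was under 2-fold without scaling (0.84 on the log2 scale) and in the authors' values (0.93). All 3 were thus lowest in suspension and within 2-fold between the arrays of plated cells.

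The other synthesis genes stayed within 2-fold in both steps. Fasn, the fatty acid synthase itself, read 315.1, 219.9 and 332.1 units (-0.52 ± 0.21 in suspension, log2). Acaca, the carboxylase that makes malonyl-CoA for it, read 6395.5, 4155.3 and 5469.6 units (-0.62 ± 0.20), though its 3 probes gave different signs on return to the plate (-0.10 to 0.40). Acacb, the mitochondrial form, which restrains fatty acid oxidation, read 103.9, 166.7 and 109.7 units (0.68 ± 0.21). Scd1, the desaturase prominent in liver and fat, read 1678.3, 1415.1 and 1561.4 units (-0.25 ± 0.20).

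The 4 genes of triglyceride synthesis were split. Gpd1, which makes the glycerol phosphate backbone from a product of glycolysis and is abundant in fat, liver and muscle, read 32.41 units in adherent, 453.6 in non-adherent and 25.6 in re-adherent cells. It was 14.0-fold higher in suspension (3.81 ± 0.26) and 17.7-fold lower on return (-4.15 ± 0.33), the largest change among the members outside the fat-cell-restricted group. Its re-adherent signal lay near the lowest counted as well above background there, 21.33 units. That rank depends on the background method. With normexp background correction Gpd1 stood at 2.53 and -2.36 on the log2 scale, Cd36 at 2.85 and -2.82 and Fabp4 at 2.57 and -3.16. Dgat2, an acyltransferase of the last step, was opposite, at 1408.6, 651.9 and 1312.3 units, 2.16-fold lower in suspension and 2.01-fold higher on return. Both were near the 2-fold limit, and the suspension step was just under it with normexp background correction (-0.995 on the log2 scale). The return step was under 2-fold without scaling (0.65), in the authors' values (0.73), with spike-in scaling (0.81) and with normexp correction and quantile normalization (0.97 each). Dgat1, which catalyses the same step, read 928.1, 1148.4 and 1002.4 units (0.31 ± 0.20 in suspension), and Agpat2, an earlier acyltransferase, read 1035.8, 1798.5 and 1565.6 units (0.80 ± 0.20).

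Of the lipolysis genes, Lipe and Pnpla2 were over 2-fold higher in suspension. Lipe, the hormone-sensitive lipase of fat cells, read 32.11, 105.9 and 48.14 units, 3.3-fold higher in suspension and 2.2-fold lower on return, though with normexp background correction these differences were 0.82 and -0.41 on the log2 scale, under 2-fold. Pnpla2, the triglyceride lipase ATGL that starts lipolysis in most cells, read 3088.2, 8627.1 and 5513.1 units, 2.79-fold higher in suspension and 1.57-fold lower on return. Mgll, which cleaves the last fatty acid from glycerol, read 744.3, 1353.4 and 1348.2 units and stood as high after return as in suspension. Its log2 difference was -0.01 ± 0.20 on return and 0.86 ± 0.20 between re-adherent and adherent cells. Over its 3 measured probes the difference ran from 0.86 to 1.21 in suspension and from 0.86 to 1.005 between re-adherent and adherent cells. The same probe gave both upper values, so whether Mgll was over 2-fold higher depends on the probe. Pnpla3, a relative of Pnpla2, was dim on all arrays and not well above background (5.203 to 14.04 units).

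**Figure D2:**
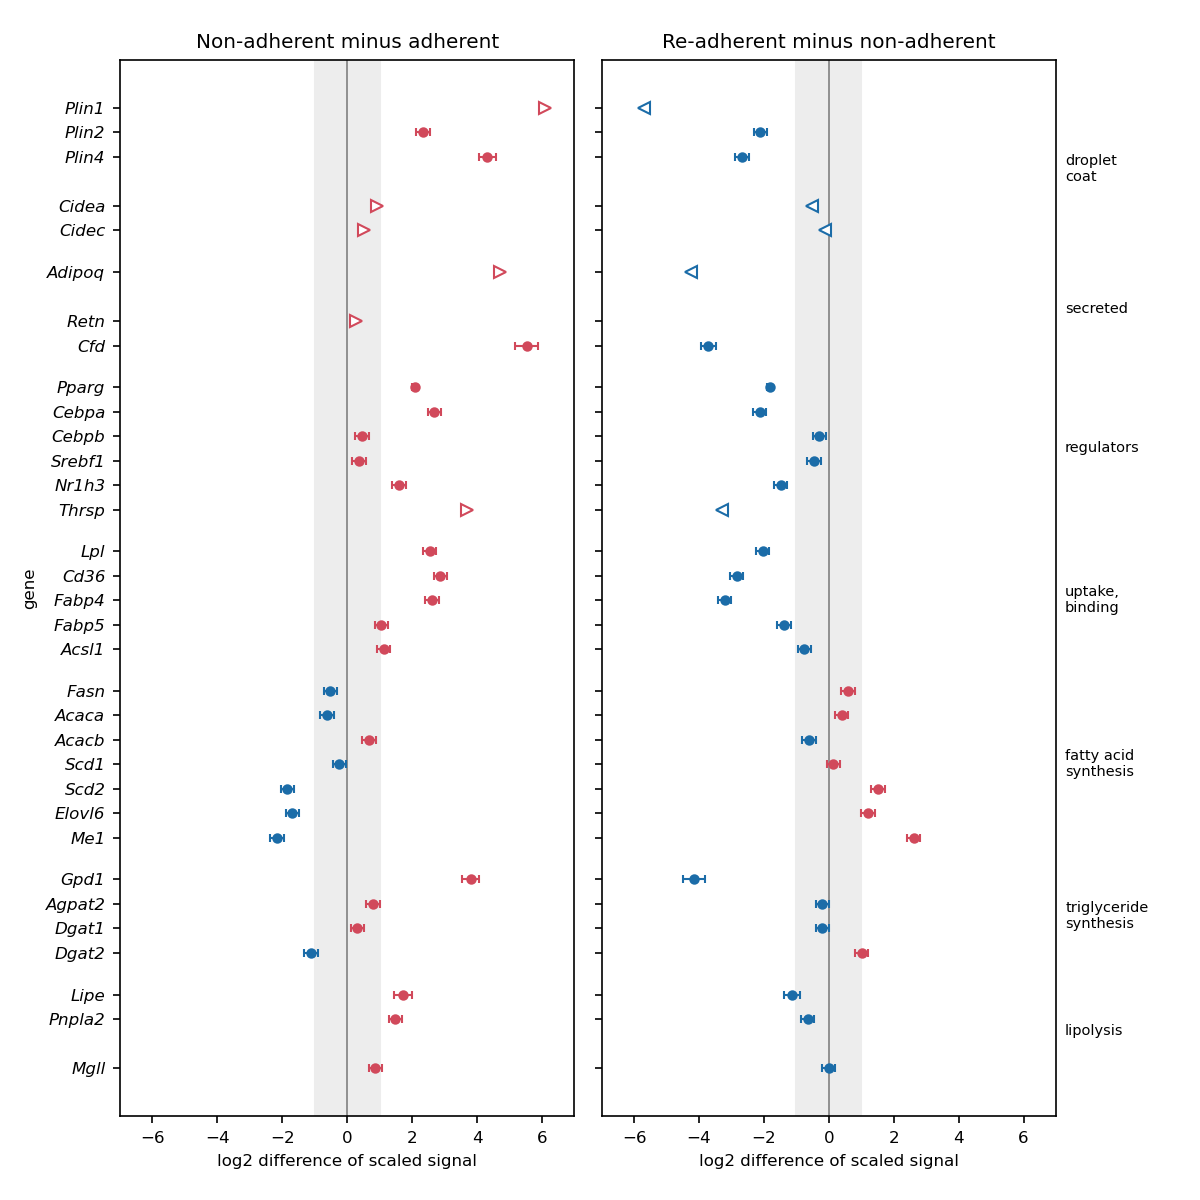
Log2 difference of scaled signal for the 33 measured genes between non-adherent and adherent cells (left) and between re-adherent and non-adherent cells (right), with points and the scanner software's error where both arrays were well above background and open arrowheads at the lower bound where only 1 was. The grey band marks changes within 2-fold, and the right panel is close to a mirror image of the left, the non-adherent array being part of both.

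The members are also counted by the cells that use them, beside the 15.8% of all genes that were higher and the 13.8% that were lower in suspension. Of the 9 fat-cell-restricted genes, 8 were measured, 5 were over 2-fold higher in suspension, 0 lower and 3 had a bound under 2-fold. The median log2 difference was 4.01 with dim signals at their bound, but 6 of these 8 were measured only through the suspension array and Plin1 and Thrsp were included because they had been seen to be higher, so neither the count nor the median is evidence about the kind. With normexp background correction, which adds an offset to every signal, their log2 differences were smaller, at 4.21 for Plin1, 3.65 for Cfd, 2.81 for Plin4, 2.66 for Adipoq and 1.93 for Thrsp, and Gpd1 stood at 2.53. The re-adherent against adherent difference could be measured for Plin4 and Cfd alone, the members of this kind that were bright on all arrays, and both were higher. All 13 genes shared with macrophages were bright on every array, and 9 were higher in suspension, 1 (Scd2) lower and 3 within 2-fold, with a median of 1.60. After return 0 of the 13 differed over 2-fold from adherent cells, with a median of 0.17. Of the 14 lipid genes of most cells, 12 were measured, with a median of 0.34. In suspension 3 were higher (Gpd1, Lipe and Pnpla2), 3 lower (Elovl6, Me1 and Dgat2) and 6 within 2-fold.

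Most macrophage and endothelial markers were also higher in suspension, and the part of other cells in the results was not tested. Of 20 macrophage markers, 18 were measured, all of them bright on every array. In suspension 17 were over 2-fold higher, against 15.2% of all genes bright on every array, with a median log2 difference of 2.80. Their summed signal was 245241.1 units in adherent, 1405114.1 in non-adherent and 425942.6 in re-adherent cells. Ptprc, the gene of CD45 itself, read 343.8, 2206.1 and 618.4 units, Cd163 was dim throughout (3.631 to 5.035 units, not well above background), and Cd68 had no probe under its symbol. After return 9 of the 18 markers stayed over 2-fold above adherent cells, against 3.2% of all genes bright on every array. The other 9 were within 2-fold of adherent cells, among them Mrc1 (0.30 on the log2 scale), Lyz2 (0.28) and Ctss (-0.31). The median of the 18 was 1.01, with a range from -0.31 to 4.62, and that of the lipid genes shared with macrophages was 0.17. The largest changes were in Cd5l, a secreted macrophage protein that also acts on lipid droplets (190.8, 17510.5 and 753.0 units), the mannose receptor Mrc1 (3091.9, 36992.3 and 3810.0), the complement gene C1qb (6804.7, 73961.0 and 24120.1) and the scavenger receptor Marco (754.9, 6811.2 and 634.8). Cx3cr1, the fractalkine receptor, was the marker that was over 2-fold higher again on return, at 402.5, 2563.9 and 9877.1 units. Itgam was the single measured macrophage marker not over 2-fold higher in suspension, at 24546.9, 13746.4 and 22037.1 units.

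Of 10 endothelial markers, 7 were over 2-fold higher in suspension (median 1.24), against 15.8% of all genes. In re-adherent against adherent cells 5 were over 2-fold lower (median -1.62), against 2.94% of all genes. Their summed signal was 14904.5, 23328.9 and 14029.5 units, of which Kdr gave much (9136.9, 7175.1 and 12003.7 units). Cdh5, the cadherin of endothelial junctions, read 280.0, 2151.9 and 30.99 units, and Esam, an adhesion molecule there, 213.2, 1010.4 and 50.73 units. Tie1, a receptor kinase, read 36.39, 330.0 and 4.418 units and Emcn, a sialomucin, 212.0, 291.2 and 16.88 units, both not well above background in re-adherent cells. Of 9 cardiomyocyte markers 6 were measured, and Ryr2, Pln and Ttn never stood well above background. The summed signal was 748.5, 1247.2 and 2126.4 units, of which Tnnt2 gave most (573.4, 863.2 and 1914.4 units). In suspension 2 of the 6 were over 2-fold higher and 0 lower, against 15.8% and 13.8% of all genes. On return 1 of the 6 (Tnnt2) was over 2-fold higher and 2 were over 2-fold lower, against 14.9% and 13.9% of all genes.

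The labelled cell type was checked with 9 markers of fibroblasts and myofibroblasts, all bright on every array. Acta2, the smooth muscle actin of myofibroblasts, read 420591.5, 4231.3 and 401413.6 units, Thy1, a surface protein of fibroblasts, 39123.3, 3455.2 and 33285.6 units, and Col1a1 109324.1 units or more on each array. In suspension 4 of the 9 were lower by over 2-fold, and those higher by over 2-fold were the matrix proteoglycans Dcn (43541.9, 140972.3 and 15302.2 units) and Lum (3168.3, 37334.7 and 438.2 units). Of all genes bright on every array, 13.4% were lower and 15.2% higher. Of the 9 fat-cell-restricted genes, Lep alone was not well above background in suspension, and the others ran there from 19.75 units (Retn) to 1101.7 (Plin1). In RNA of mixed cells, a change in the number of cells of a type cannot be told apart from a change in RNA per cell.

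**Figure D3:**
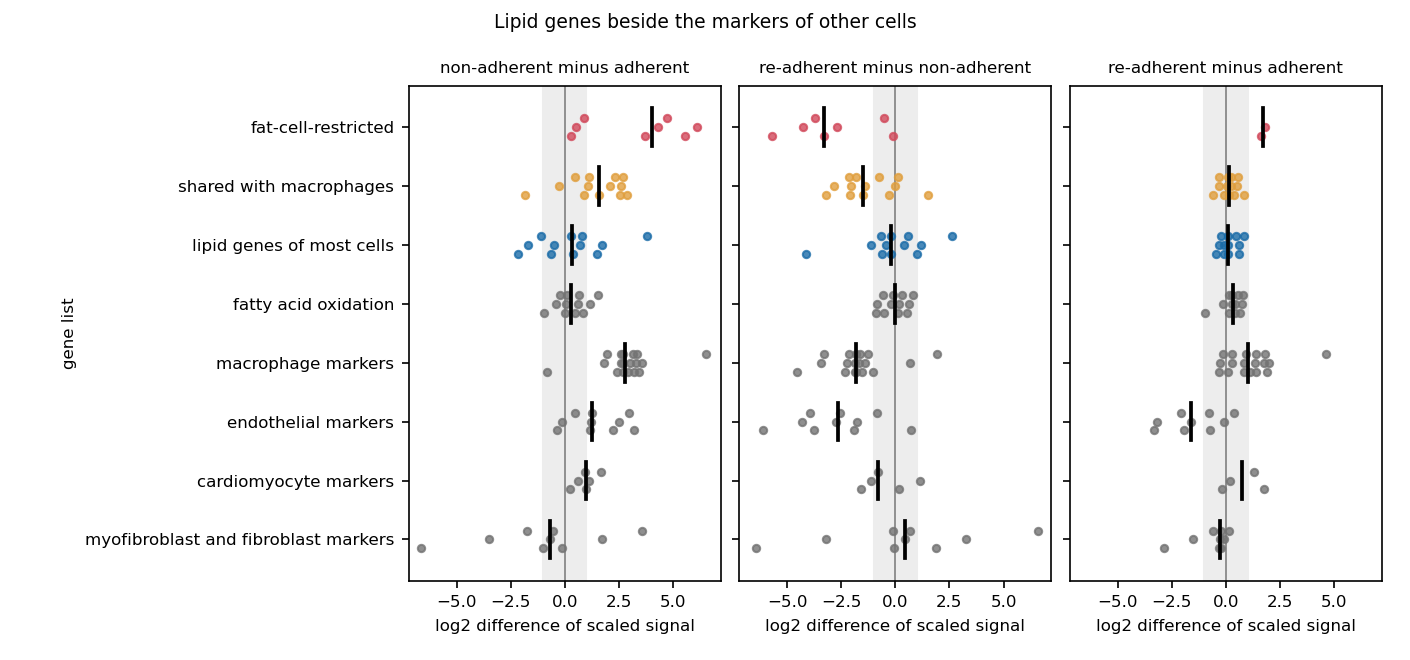
Log2 differences of scaled signal between each pair of arrays for the 3 kinds of member, fatty acid oxidation genes and the markers of 4 other cell types, with a dot per gene (dim signals at their bound) and a black bar at each list's median. In suspension the median was 4.01 for the fat-cell-restricted genes, most of them measured on that array alone, 1.60 for the lipid genes shared with macrophages and 2.80 for the macrophage markers, and against adherent cells the re-adherent medians of the last 2 were 0.17 and 1.01. The macrophage markers ran from -0.31 to 4.62 in that last comparison.

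Genes of the same pathways that are not among the 36 were also counted. Of 34 other lipid storage genes, 32 were measured, 8 were over 2-fold higher in suspension and 2 lower, against 15.8% and 13.8% of all genes, with a median log2 difference of 0.06 against -0.07 over all genes. Among the largest changes were Gpihbp1, which holds lipoprotein lipase on capillary endothelium (185.3, 1482.8 and 127.7 units, 3.00 in suspension), Lpin1, a phosphatidate phosphatase of triglyceride synthesis (67.15, 489.8 and 134.7 units, 2.87), Lipa, the lysosomal acid lipase of macrophages and other cells (3958.8, 27038.1 and 6438.1 units, 2.77), and Slc2a4, the insulin-responsive glucose transporter GLUT4 (42.03, 143.4 and 7.819 units, 1.77), which was not well above background after return, at least 6.72-fold below suspension. Fads2, a desaturase of polyunsaturated fatty acids, was the gene most strongly lower, at 240.5, 34.37 and 250.5 units (-2.81). Like Scd2, Elovl6 and Me1, it was low in suspension and back within 2-fold of adherent cells after return.

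Of 17 other regulators of fat cells, 15 were measured, 3 were over 2-fold higher in suspension and 3 lower, against 15.8% and 13.8% of all genes. Srebf2, which governs cholesterol synthesis, read 605.9, 5271.8 and 961.3 units (3.12), against 0.37 for its relative Srebf1, and Klf15, a late factor of fat cell formation, read 46.49, 301.6 and 48.89 units (2.70). Ppargc1a, the coactivator of mitochondrial genes, was well above background in suspension alone, at 44.76 units. Dlk1, or Pref-1, which holds precursors back from becoming fat cells, was lower in suspension, at 206.6, 27.99 and 40.9 units (-2.88), and unlike the members it stayed low after return (-2.34 against adherent cells). Cebpd, an early factor of fat cell formation, read 58489.7, 14918.3 and 49187.6 units (-1.97), and Ebf1 read 1959.4, 668.9 and 1521.7 units (-1.55). Ucp1, the uncoupling protein of brown fat, was dim on all 3 arrays (4.039 to 9.387 units).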

How the data were processed

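Per the file headers, the authors scanned 1-colour Agilent mouse arrays and deposited the intensity of each spot as Agilent Feature Extraction 10.10.1.1 gave it, with background subtracted. The deposited value table holds the same intensities times 1.521 to 1.619 per array, and it was used as an alternative. All 3 arrays shared a slide and scan time. Control spots and outlier flags were left out (59305 non-control spots per array), log2 intensity minus the array's 75th percentile was taken, and repeat spots of a probe were averaged. Of 37874 transcript names, 21462 were matched to RefSeq symbols, and a gene was given by the brightest of its probes that passed the background filter on any array. Members and lists were chosen with earlier results of these data known. Every member is accounted for, and of other lists the genes over 4-fold apart in either step were named, up to 4 in each direction of the suspension step by the larger of both changes. Ptprc, Itgam, Cx3cr1, Kdr, Tnnt2, Col1a1, Ppargc1a, Cebpd, Ebf1, Ucp1, Cpt1a, Acadl and Cpt1b were named after their values were seen. Calls are over 2-fold, with 1 array per group and no test. Alternatives changed background correction (limma 3.58.1, normexp, offset 50), scaling, low signals, filter, probe choice, patches and the fold. The intensity error of the software does not include biological spread, and the number of arrays limits the precision. The steps were checked by adding known shifts to real genes that were bright on all 3 arrays, which does not check the handling of dim signals.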

Additional observations from a re-analysis of the deposited data

How the results depend on the processing

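No called difference of a member changed sign under any alternative: of 456 values recomputed for 42 called differences, 369 moved by less than the array's error and 87 by more. Members past the fold limit numbered 12 to 20 higher in suspension and 11 to 17 lower on return. The lowest counts were those over 4-fold, and with genes bright on all 3 arrays alone the 2-fold counts were 14 and 12. No paired analysis was possible because there was 1 array a group.

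Scaled to the spike-in RNA, the median of all genes moved to -0.34 in suspension and -0.41 in re-adherent against adherent cells, and the members' medians moved with it to 0.78 and -0.36, the fat-cell-restricted medians to 3.74 and 1.26 and those shared with macrophages to 1.33 and -0.30, with 1 member lower in re-adherent cells. With no scaling, where all genes stood at -0.29 on return and -0.20 in re-adherent against adherent cells, the members' medians were -1.01 and -0.15, the shared medians -1.85 and -0.10 and the fat-cell-restricted re-adherent median 1.46, with 2 members higher on return. The authors' values gave -0.92 for members and -1.76 for shared genes on return, with 2 members higher, and quantile normalization gave -1.87 for shared genes.

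Normexp correction gave fat-cell-restricted medians of 2.30 in suspension, -2.20 on return and 0.87 in re-adherent against adherent cells, with 0 members higher there. With low signals as measured, the members' medians were 1.48 and -0.97 in the 2 steps and the fat-cell-restricted medians 4.88 in suspension and 1.19 in re-adherent cells, where 5 members were then higher. Genes bright on all 3 arrays alone gave a fat-cell-restricted median of 4.93, and the mean of probes gave -1.06 for members on return. Over 4-fold, 1 member was lower in suspension, 1 higher on return and 0 higher in re-adherent against adherent cells. Where a reading was not well above background, signal sets a lower bound only. The planned limit for uneven patches (1 on the log2 scale) marked 0 spots, so a limit of 0.3 was added after seeing the data, as was normexp on median signals in place of mean signals.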

Other observations

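Of 12 genes of fatty acid oxidation, all bright on every array, 2 were over 2-fold higher in suspension and 0 lower, with a median log2 difference of 0.29. That is near the 15.2% of all genes bright on every array that were higher. Cpt1a, the carnitine transferase that admits fatty acids to mitochondria, read 3778.3 units in adherent, 10880.0 in non-adherent and 5960.5 in re-adherent cells (1.53 in suspension), and Acadl, a dehydrogenase of long chains, read 1104.1, 2457.2 and 1329.8 units (1.15). Cpt1b, the muscle form of the transferase, was dim at 61.85, 47.14 and 31.52 units.

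The spots of the 17 members that were higher in suspension lay in array neighbourhoods whose median stood between -0.22 and 0.23 on the log2 scale from the non-adherent array's own median, inside the array's range of -0.60 to 0.54.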
